A study of Mus musculus with 8 samples.

Results

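The phagocyte NADPH oxidase genes described here are Cybb, Cyba, Ncf1, Ncf4, Rac2 and Hvcn1, chosen by name as oxidase subunits, the phagocyte Rac GTPase and the voltage-gated proton channel. They are 6 of the 35944 genes to which the deposited transcript table was summed, and all 6 were counted in every library. The RNA was from mouse buffy coat, which is the layer of white cells and platelets that forms when blood is spun. PM2.5 (fine particles from polluted air) was given for 24 weeks, and controls received PBS (buffered saline). The PM2.5 group held replicates 9, 17, 18 and 21 and the PBS group replicates 4, 10, 12 and 16, numbered as in the labels. The labels state no strain, sex, age, dose or route. They also leave unsaid whether libraries and animals correspond, so a p-value here reflects only how far these libraries vary, which may be technical.

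The oxidase moves electrons from NADPH in the cytosol across a membrane to oxygen and so makes superoxide, the first product of the respiratory burst by which neutrophils and monocytes kill microbes. Its core is a membrane pair, Cybb with Cyba, which is inactive until cytosolic subunits and GTP-bound Rac dock on it. The electrons carry charge out of the cytosol, and the proton channel Hvcn1 lets protons follow, which keeps the enzyme running; Hvcn1 is also abundant in B cells, where it sits near the antigen receptor. Loss of a subunit causes chronic granulomatous disease.

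Libraries held 72081019 to 89032794 expected counts (estimated read counts per transcript). Haemoglobin genes took 82.4% to 88.6% of them, which left 9615115 to 12714432 counts for every other gene. The members held between 87 counts (Ncf4 in PM2.5 replicate 18) and 1246 (Cybb in PBS replicate 16). Levels below are CPM, counts scaled to a common library size after TMM scaling (a factor that balances the bulk of genes between libraries), and an adjusted p is from edgeR's quasi-likelihood test with Benjamini-Hochberg adjustment over all 10361 genes tested. PM2.5 replicates 17 and 18 stood apart: 5 brain-expressed genes (Snap25, Syt1, Slc17a7, Camk2a and Sst) summed to 149 and 183 counts in them and to 0 to 6 in the other libraries. Markers of platelets, B cells, T cells, monocytes and neutrophils were all counted, but the neutrophil genes Ly6g, Ngp and Camp had at most 8 counts in any library.

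Hvcn1 fell with PM2.5 and the other members did not pass the test. Mean Hvcn1 was 4.49 ± 0.324 CPM in the exposed group against 7.97 ± 1.97 in the PBS group (SD, n = 4 each). The oxidase subunits and Rac2 had log2 fold changes between 0.08 and 0.30, each with a 95% interval that spans 0. Thus 1 of 6 members passed adjusted p 0.05, and it was lower; among all genes tested 1.6% passed in either direction and 1.14% passed as lower. Hvcn1 was also the 1 member under an unadjusted p of 0.05, which 18.1% of all genes were in either direction and 9.28% as lower. The median log2 fold change of the 6 members was 0.12, against 0.04 over all genes tested. In bulk RNA, fewer cells of a type and less of the transcript per cell cannot be told apart.

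**Figure D1:**
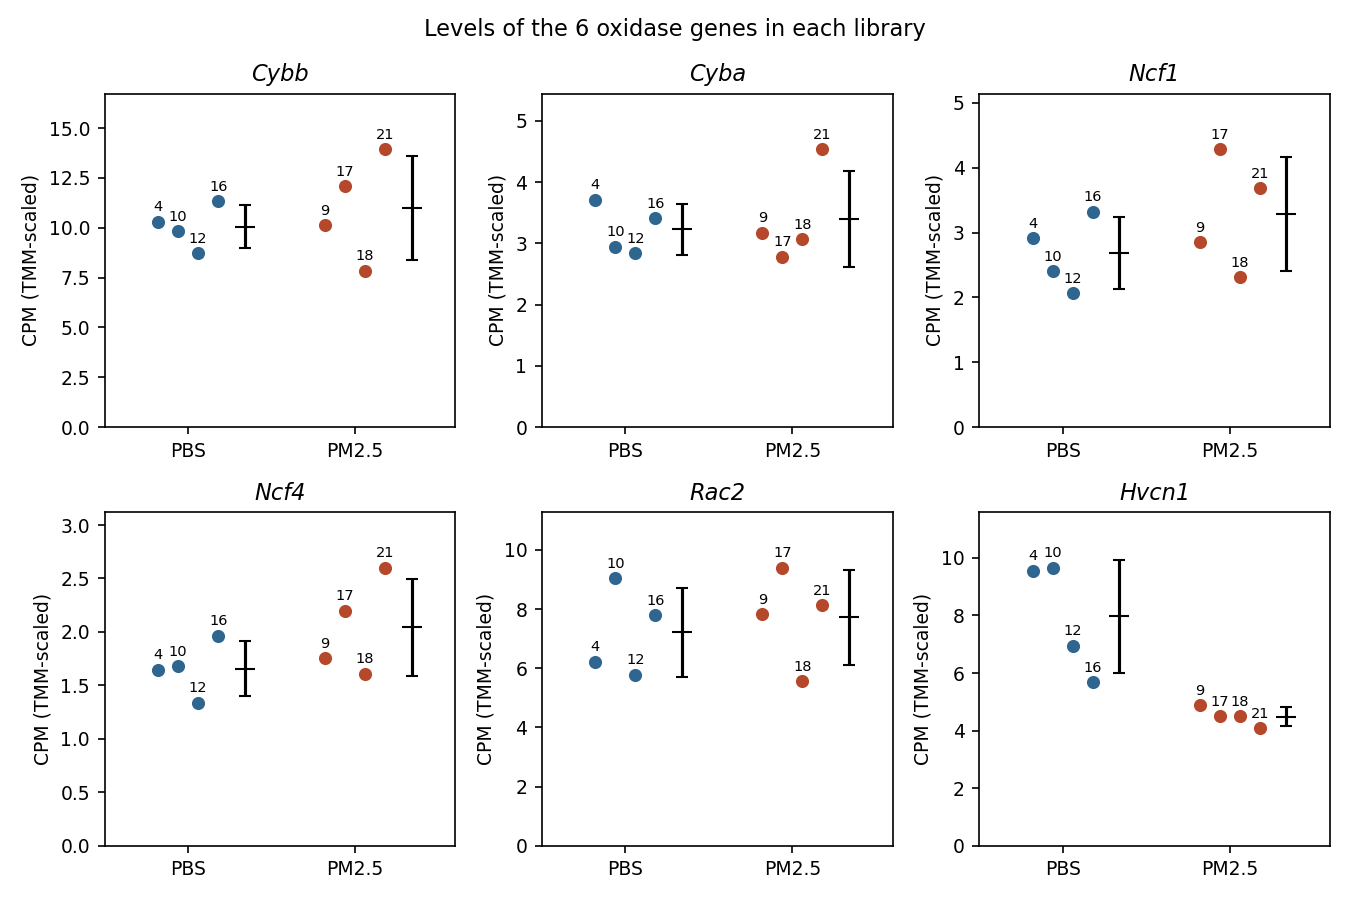
Level of each member in every library, in CPM of TMM-scaled libraries on a linear axis from 0; points are libraries labelled with their replicate number, and bars are the mean and SD of 4. The 4 PM2.5 libraries lie between 4.09 and 4.88 CPM for Hvcn1, under all PBS libraries, while the groups overlap for the other 5 genes.

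Cybb encodes the catalytic subunit, which carries the haem and flavin groups that pass the electrons (chromosome X, 9435252 to 9487771, minus strand, GRCm38). It was 10.1, 12.1, 7.85 and 13.9 CPM in PM2.5 replicates 9, 17, 18 and 21, and 10.3, 9.83, 8.74 and 11.3 CPM in PBS replicates 4, 10, 12 and 16. The PM2.5 libraries held both the highest and the lowest value, and the groups overlapped. The log2 fold change was 0.13 (SE 0.186, 95% interval -0.26 to 0.52, adjusted p = 0.735, edgeR). The annotated full-length transcript Cybb-201 took 99.3% ± 0.441 of the gene's counts with PM2.5 and 98.7% ± 0.332 with PBS.

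Cyba encodes the small membrane subunit that stabilises Cybb and gives the cytosolic subunits their docking site (chromosome 8, 122424776 to 122432930, minus strand). It was 3.17, 2.78, 3.07 and 4.54 CPM in PM2.5 replicates 9, 17, 18 and 21, and 3.71, 2.95, 2.84 and 3.41 CPM in PBS replicates 4, 10, 12 and 16. Replicate 21 was above every other library and replicate 17 below every other. The log2 fold change was 0.08 (SE 0.173, 95% interval -0.29 to 0.44, adjusted p = 0.843). Cyba lies within Gm20388, an annotated gene of the opposite strand with 3752 counts over the 8 libraries, and that gene was at 0.31 (adjusted p = 0.403). No source used here states whether the authors' counting used strand.

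Because Cybb and Cyba form a pair, their levels adjusted for length were set side by side. On the deposited FPKM scale (fragments scaled to transcript length and library total, with no TMM scaling) the main transcripts gave 2.11 ± 0.865 for Cybb and 6.47 ± 2.84 for Cyba with PM2.5, and 2.82 ± 0.837 and 8.98 ± 2.92 with PBS. The deposited FPKM do not follow from the counts and tabulated lengths alone, and the length adjustment behind them is not given. The ratio of Cyba to Cybb within a library depends on that adjustment and not on the scaling of that library. It was 3.10, 2.30, 3.85 and 3.20 in PM2.5 replicates 9, 17, 18 and 21, and 3.53, 2.96, 3.24 and 3.01 in PBS replicates 4, 10, 12 and 16. The means were 3.11 ± 0.634 and 3.18 ± 0.261, a difference smaller than either SD.

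The RefSeq table of gene starts (GRCm38.p6) held 3 of the 6 members, and the 250 bases upstream of each are shown because Cybb and Ncf1 varied together across libraries while Cyba did so less. Capitals mark AGGAA, a longer form of the GGAA core bound by ETS factors such as PU.1, and CCAAT, each searched on both strands. The 2 patterns do not overlap here. All windows are on the minus strand and are written in the direction of transcription: Cybb at chrX:9469325-9469574, Ncf1 at chr5:134229626-134229875 and Cyba at chr8:122432941-122433190. The Cybb window ends at the start of Cybb-201 (9435252 to 9469324), and it lies inside the GENCODE span of the gene because Cybb-205, which had 0 counts in every library, reaches to 9487771.
Cybb: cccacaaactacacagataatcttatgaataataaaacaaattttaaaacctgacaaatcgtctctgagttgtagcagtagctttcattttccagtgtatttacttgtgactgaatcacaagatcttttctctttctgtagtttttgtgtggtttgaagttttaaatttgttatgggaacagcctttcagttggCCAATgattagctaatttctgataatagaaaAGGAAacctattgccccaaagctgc
Ncf1: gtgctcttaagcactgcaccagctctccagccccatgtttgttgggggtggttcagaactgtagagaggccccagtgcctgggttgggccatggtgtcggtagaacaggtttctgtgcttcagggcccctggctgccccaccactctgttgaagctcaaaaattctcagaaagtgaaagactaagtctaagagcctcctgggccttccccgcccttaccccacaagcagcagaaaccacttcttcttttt
Cyba: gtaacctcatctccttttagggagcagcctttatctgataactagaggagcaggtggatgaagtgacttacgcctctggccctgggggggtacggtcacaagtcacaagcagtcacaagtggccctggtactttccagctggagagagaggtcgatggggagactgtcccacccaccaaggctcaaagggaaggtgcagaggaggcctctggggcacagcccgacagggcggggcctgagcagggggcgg
The Cybb window holds AGGAA from 25 to 21 bases before the start and CCAAT from 56 to 52 bases before it. Neither pattern is in the other windows, but the shorter GGAA is in the Cyba window and its complement TTCC in the Ncf1 window. Of 32851 windows of the same length, 60.3% hold AGGAA, 33.9% hold CCAAT and 20% hold both. The windows differ in base composition, with 34% G and C for Cybb, 54.4% for Ncf1 and 60% for Cyba against a median of 52.4%. A match describes the letters and no binding was measured.

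Ncf1 encodes the organiser subunit, which is phosphorylated on activation and brings the cytosolic complex to the membrane (chromosome 5, 134220053 to 134229625, minus strand). It was 2.85, 4.29, 2.31 and 3.68 CPM in PM2.5 replicates 9, 17, 18 and 21, and 2.92, 2.41, 2.07 and 3.33 CPM in PBS replicates 4, 10, 12 and 16. Replicates 17 and 21 were above every PBS library, and replicates 9 and 18 were within the PBS range. The log2 fold change was 0.29 (SE 0.198, 95% interval -0.13 to 0.71, adjusted p = 0.440). Gtf2ird2, which overlaps the gene's end on the opposite strand, had 141 counts in all, against 1994 for Ncf1.

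Ncf4 encodes the cytosolic subunit that binds the phosphoinositide of the phagosome membrane (chromosome 15, 78244801 to 78262580, plus strand). It was 1.76, 2.20, 1.61 and 2.60 CPM in PM2.5 replicates 9, 17, 18 and 21, and 1.65, 1.68, 1.34 and 1.96 CPM in PBS replicates 4, 10, 12 and 16. PBS replicate 12 was the lowest library and PM2.5 replicate 21 the highest, with overlap between the groups. The log2 fold change was 0.30 (SE 0.185, 95% interval -0.09 to 0.69, adjusted p = 0.391). Cybb, Ncf1 and Ncf4 shared an order: PM2.5 replicates 17 and 21 held the 2 highest values of all libraries in each, and PM2.5 replicate 18 or PBS replicate 12 the lowest.

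The counts of Ncf4 were spread over several transcripts, while 1 transcript took most of those of every other member on average. The retained-intron transcript Ncf4-206, of 540 bases, took 36.7% ± 5.41 of the gene's counts with PM2.5 and 47.8% ± 13.7 with PBS, with 68.2% in PBS replicate 12. The full-length coding transcript Ncf4-201, of 1464 bases, took 32.8% ± 13.2 and 24.0% ± 2.43. Summing transcripts annotated as protein coding alone, an alternative chosen after seeing the data, gave a log2 fold change of 0.52 (adjusted p = 0.402). The level of Ncf4 therefore depends on which transcripts are counted, and the call does not.

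**Figure D2:**
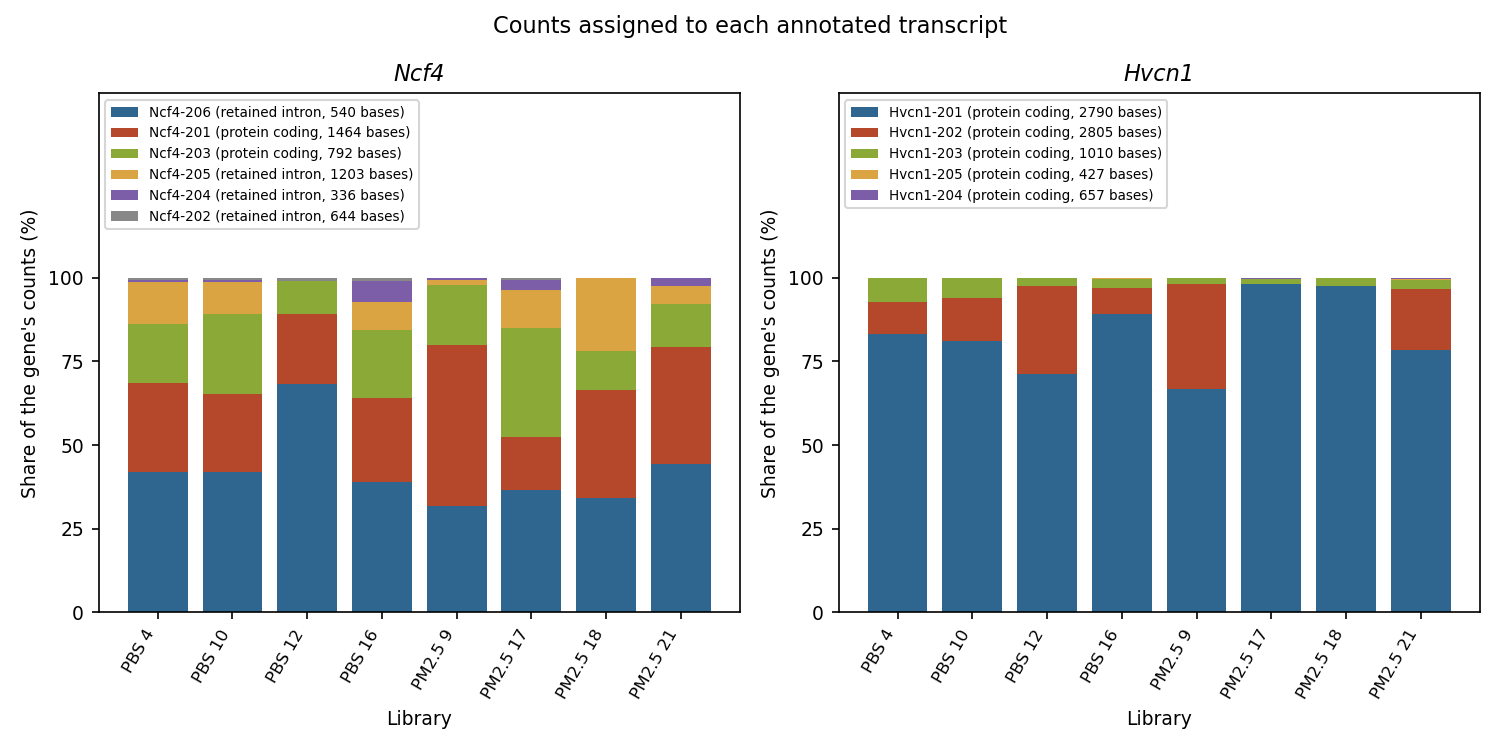
Share of each gene's expected counts assigned to each annotated transcript, in percent, for Ncf4 (left) and Hvcn1 (right), 1 bar per library. Ncf4-206 takes 31.9% to 68.2% of Ncf4, and Hvcn1-202 ranges from 0% to 31.3% of Hvcn1.

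Rac2 encodes the small GTPase that switches the assembled enzyme on in blood cells (chromosome 15, 78559167 to 78572783, minus strand). It was 7.82, 9.40, 5.55 and 8.14 CPM in PM2.5 replicates 9, 17, 18 and 21, and 6.22, 9.05, 5.78 and 7.79 CPM in PBS replicates 4, 10, 12 and 16. The highest and the lowest library were both in the PM2.5 group. The log2 fold change was 0.10 (SE 0.190, 95% interval -0.30 to 0.50, adjusted p = 0.809).

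On the FPKM scale Rac2 looked different, and a short transcript carried that difference. Summed over its 3 transcripts, Rac2 was 2.42 ± 0.869 FPKM with PM2.5 and 8.34 ± 6.53 with PBS, and limma on log2(FPKM + 1) gave -1.22 (adjusted p = 0.164). The main transcript Rac2-201, of 3038 bases, was 2.40 ± 0.842 FPKM and 3.32 ± 1.14. In PBS replicate 16 Rac2-203 had 12.2 expected counts and 13.4 FPKM, while Rac2-201 had 844.9 counts and 3.60 FPKM. Rac2-203 had 4.67 counts and 5.19 FPKM in PBS replicate 10, and 0 counts in all PM2.5 libraries. Its sequence is shown because 245 of its 254 bases, in lower case, are also bases 477 to 721 of Rac2-201, so that few reads can tell the 2 apart; the 9 in capitals are not.
Rac2-203: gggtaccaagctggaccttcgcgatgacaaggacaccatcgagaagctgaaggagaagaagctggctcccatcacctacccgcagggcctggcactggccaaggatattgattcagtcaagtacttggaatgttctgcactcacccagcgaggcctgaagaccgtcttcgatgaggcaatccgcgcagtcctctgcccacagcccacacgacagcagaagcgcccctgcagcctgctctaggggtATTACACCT
Gene sums of expected counts give these reads a weight of 1 each, and the FPKM sum gives them more. The tabulated length of 254 bases alone does not give that weight, and the length adjustment is not stated.

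**Figure D3:**
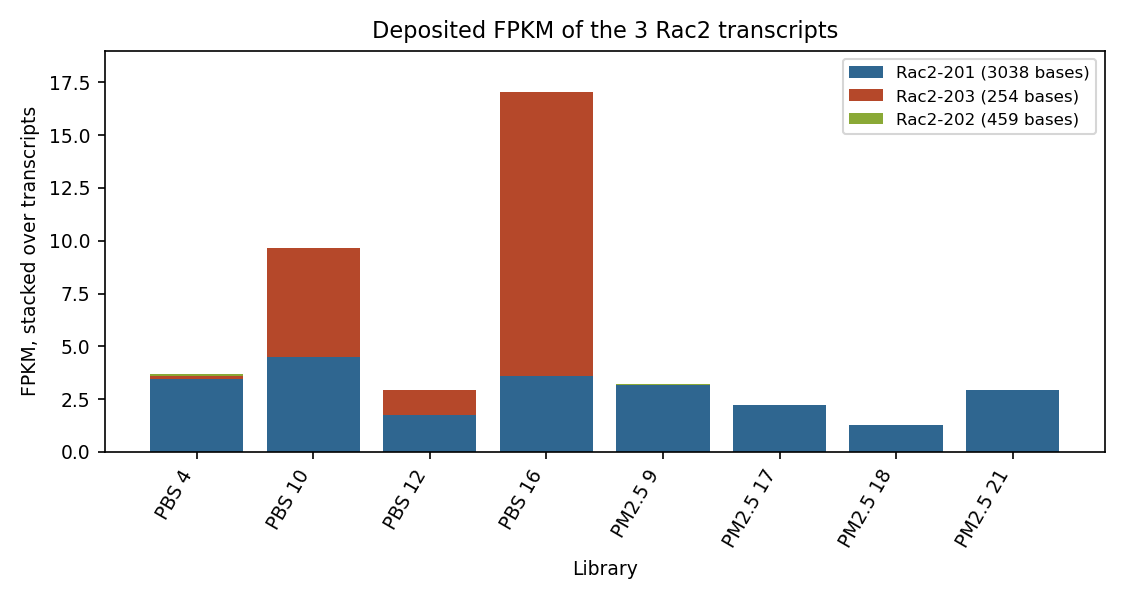
Deposited FPKM of the 3 Rac2 transcripts, stacked, for each library. Rac2-203 accounts for 13.4 of the 17.03 FPKM in PBS replicate 16 and for 5.19 of 9.67 in PBS replicate 10, and is 0 in the 4 PM2.5 libraries.

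Hvcn1 encodes the proton channel (chromosome 5, 122206804 to 122242297, plus strand). It was 4.88, 4.49, 4.50 and 4.09 CPM in PM2.5 replicates 9, 17, 18 and 21, and 9.56, 9.66, 6.95 and 5.69 CPM in PBS replicates 4, 10, 12 and 16. All PM2.5 libraries were below all PBS libraries, as in 6.65% of all genes tested, and the PBS libraries spread more, with a coefficient of variation of 24.7% against 7.22%. The log2 fold change was -0.83 (SE 0.181, 95% interval -1.21 to -0.45, adjusted p = 0.0298, edgeR), so that PBS was 1.78-fold higher, and Hvcn1 stood 86th of 10361 genes by p. The call ended when replicate 17, 18 or 21 of the exposed group was left out, or replicate 4 or 10 of the controls (adjusted p = 0.0592 to 0.0955), while the log2 fold change stayed between -0.97 and -0.75 whichever single library was left out.

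The channel's main transcript followed the gene. Hvcn1-201 held 261.5, 240.5, 237.3 and 269.2 expected counts in PM2.5 replicates 9, 17, 18 and 21, and 869.2, 839.1, 366.5 and 557.7 in PBS replicates 4, 10, 12 and 16. These counts are not scaled. Library sizes after TMM scaling were 54042200 to 84185300 with PM2.5 and 74068000 to 110067000 with PBS. Hvcn1-202, the next most counted transcript, took 31.3% and 18.3% of the gene's counts in PM2.5 replicates 9 and 21 and 0% in replicates 17 and 18, the libraries with brain-expressed transcripts. Tctn1 overlaps the gene's end on the opposite strand and had 317 counts in all, with a log2 fold change of -0.02 (adjusted p = 0.974), against 4446 counts for Hvcn1.

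Ratios within a library, which no scaling touches, placed Hvcn1 lower against the oxidase core too, with overlap. There were 48.2, 37.1, 57.3 and 29.3 Hvcn1 counts per 100 Cybb counts in PM2.5 replicates 9, 17, 18 and 21, and 92.7, 98.3, 79.6 and 50.2 in PBS replicates 4, 10, 12 and 16. PBS replicate 16 was below PM2.5 replicate 18, and the other 3 PBS libraries were above all PM2.5 libraries. The means were 43.0 ± 12.3 and 80.2 ± 21.5. Ncf1 per 100 Cybb counts, by contrast, was 29.9 ± 3.93 with PM2.5 and 26.5 ± 2.81 with PBS.

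Markers of several cell types moved with these results. For reference, 0.463% of all genes tested passed as higher and 1.14% as lower. All 12 B cell markers tested had negative log2 fold changes (median -0.38, from -0.13 for Ms4a1 to -1.12 for Ebf1), 3 of them past the test, and their summed level was 42.2 to 53.8 CPM with PM2.5 and 48.3 to 79.2 with PBS. With the mean of these markers as a covariate, chosen after seeing the data, Hvcn1 was at -0.72 (adjusted p = 0.538). All 10 neutrophil markers tested of 14 listed had positive log2 fold changes (median 1.05), 5 past the test, with summed levels of 29.3 to 57.1 CPM against 14.7 to 28.4. The monocyte list had a median of 0.29, 3 of 14 past the test as higher, and sums of 134.7 to 201.97 CPM against 105.2 to 150.5. Of 8 natural killer cell markers tested 1 passed as higher (median 0.30). No marker of the erythroid (median 0.48, 14 of 15 positive), platelet (0.32, 12 of 12), T cell (0.16, 8 of 12) or eosinophil (0.11, 2 of 4) lists passed. The upper 95% bounds of the 5 oxidase genes other than Hvcn1, 0.44 to 0.71, lay under the neutrophil median of 1.05, which has no interval here. The monocyte median of 0.29 lay inside all 5 intervals. That median has no interval either, and single tested markers ran from 0.79 to 2.04 for neutrophils and from -0.29 to 2.23 for monocytes. Whether the 5 oxidase genes followed a cell type was not tested. With the neutrophil mean as a covariate the log2 fold changes of these 5 genes were between -0.49 (Rac2) and 0.17 (Cyba), none past the test, and Hvcn1 was at -0.56 (adjusted p = 0.635).

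By main-transcript FPKM with PBS the order was Cyba (8.98 ± 2.92), Hvcn1 (3.34 ± 1.47), Rac2 (3.32 ± 1.14), Cybb (2.82 ± 0.837), Ncf1 (1.26 ± 0.453) and Ncf4 (0.44 ± 0.166). This order rests on the unstated length adjustment. Hvcn1, Rac2 and Cybb did not differ beyond their spread. With PM2.5 the order was Cyba (6.47 ± 2.84), Rac2 (2.40 ± 0.842), Cybb (2.11 ± 0.865), Hvcn1 (1.24 ± 0.148), Ncf1 (1.03 ± 0.333) and Ncf4 (0.51 ± 0.320), in which Rac2 and Cybb were within each other's spread. The gap between Hvcn1 and Ncf1 was larger than the SD of Hvcn1 and smaller than that of Ncf1. The value for Ncf4 covers its full-length transcript only.

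Likeness across the 8 libraries was measured as Pearson's r of log2 CPM, a description over libraries that share group and scaling. Among the members, Cybb and Ncf4 were at 0.90 (Spearman's rho 0.90), Ncf1 and Ncf4 at 0.89 (0.90) and Cybb and Ncf1 at 0.87 (0.95). Cyba was at 0.60 with Cybb and 0.01 with Rac2, and Hvcn1 was between -0.57 and -0.12 with the other 5. The tested genes most like Cybb were Slc25a11 (0.97), Nadk (0.97), the kinase that makes NADP from NAD, and Plac8 (0.95). Those most like Ncf1 were Ptafr (0.98), the receptor for platelet-activating factor, Cd48 (0.98) and Csf1r (0.96), the monocyte growth factor receptor. Those most like Hvcn1 were Gpr107 (0.98), Tfcp2 (0.98) and Eif2ak3 (0.98). For Cyba they were Tbc1d9 (0.98), Zfp516 (0.95) and the Rac exchange factor Tiam1 (0.93), for Ncf4 Zbtb7b (0.95), Slfn5 (0.95) and Nhsl2 (0.94), and for Rac2 Ccdc85b (0.95), Hes6 (0.94) and Snx11 (0.94).

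Genes that work with the oxidase were read from lists by role. Of 15 other oxidase and assembly genes, 8 were tested and none passed, with a median log2 fold change of 0.15. Cybc1, the chaperone needed for Cybb and Cyba protein, averaged 1.87 ± 0.148 CPM after PM2.5 against 2.29 ± 0.236 in controls (log2 fold change -0.29, adjusted p = 0.326). Its groups did not overlap, as in 6.65% of all genes tested as lower. Prdx6, a peroxiredoxin with phospholipase activity, was at 0.50 (adjusted p = 0.214), Rap1a, a GTPase that copurifies with the oxidase, at 0.45 (0.290) and Rac1, the widely expressed Rac, at 0.35 (0.409). Other catalytic subunits were scarcely counted: Nox3, Duox1 and Duox2 had 0 counts in all 8 libraries, which allows up to 0.0273 to 0.0555 CPM (3 counts, counting error only), and Nox1 and Nox4 had 2 and 3 counts in all. The activator Noxa1 of other oxidases also had 0, and Noxo1 had 27.

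Of 12 Rac exchange factors and inhibitors, 1 passed, as lower, and 1.14% of all genes tested passed as lower. Arhgap15, which returns Rac to its inactive form, was 3.49, 3.005, 2.65 and 4.15 CPM in PM2.5 replicates 9, 17, 18 and 21, and 6.65, 7.28, 5.66 and 6.07 CPM in PBS replicates 4, 10, 12 and 16. All PM2.5 libraries were below all PBS libraries, as in 6.65% of all genes tested. It fell by 0.94 on the log2 scale (SE 0.166, adjusted p = 0.0113) and passed whichever single library was left out (adjusted p up to 0.0459). Summed over protein-coding transcripts alone it was at -0.59 (adjusted p = 0.202), and with the B cell marker mean as a covariate at -0.68 (adjusted p = 0.445). The call also ended without PM2.5 libraries 17 and 18 together (-0.74, adjusted p = 0.161), with the erythroid (-0.73, 0.178) or neutrophil (-0.97, 0.500) marker mean as a covariate, and under limma with 1 (-0.86, 0.155) or 0.1 (-1.32, 0.164) added to FPKM. The list's median was 0.04. Groups did not overlap for 3 of the 12 as lower and 1 as higher, against 6.65% and 3.01% of all genes tested. Besides Arhgap15 the lower ones were the exchange factor Dock2 at -0.50 (adjusted p = 0.164, edgeR) and Elmo1 at -0.46 (0.123). The higher one was the exchange factor Vav3 at 0.42 (0.216). Whether Rac activity changed was not tested.

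Of 19 receptors listed as triggers or modulators of the burst, 18 were tested and 17 had positive log2 fold changes. Their median was 0.48, against 0.04 over all genes tested. The test was passed by 2, both as higher, and by 0.463% of all genes as higher. Tlr2, the receptor for bacterial lipopeptides, averaged 1.83 ± 0.145 CPM after PM2.5 against 0.892 ± 0.216 in controls, a rise of 1.02 (SE 0.194, adjusted p = 0.0152), lost without PBS replicate 10 (0.0714). Tlr2 was at 0.83 with the neutrophil marker mean as a covariate (adjusted p = 0.524), at 1.04 without PM2.5 libraries 17 and 18 (0.142) and at 0.99 without 9 and 21 (0.0570). Csf2rb, the shared signalling chain of the receptors for granulocyte-macrophage colony-stimulating factor and related cytokines, was 3.41 ± 0.644 against 1.89 ± 0.307 CPM, a rise of 0.85 (SE 0.175, adjusted p = 0.0210). The Csf2rb call ended when replicate 9 or 17 (both PM2.5) or replicate 4 or 10 (both PBS) was left out (adjusted p = 0.0621 to 0.114), and it stood at 0.11 with the neutrophil marker mean as a covariate (adjusted p = 0.915). It was at 0.92 without PM2.5 libraries 17 and 18 (adjusted p = 0.130) and at 0.75 without 9 and 21 (0.0872). With the erythroid or B cell marker mean as a covariate Tlr2 was at 1.11 (0.130) and 1.32 (0.239), and Csf2rb at 0.96 (0.130) and 1.05 (0.359). Under scaling to library totals Tlr2 was at 0.42 (adjusted p = 0.444) and Csf2rb at 0.29 (0.554), where the median of all genes was -0.52. With haemoglobin genes removed first they were at 0.67 (0.191) and 0.51 (0.287), and from protein-coding transcripts Csf2rb was at 0.85 (0.0549).

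None of 23 kinases and lipid enzymes that activate the oxidase passed (median 0.15, 17 positive). Irak4, which phosphorylates the organiser subunit downstream of Toll-like receptors, was at 0.94 (adjusted p = 0.0587), the Src-family kinase Fgr of myeloid cells at 0.77 (0.0650), and Syk, the kinase of Fc and B cell antigen receptors, at -0.57 (0.109). The groups did not overlap for 1 of the 23 as higher (Irak4) and for 2 as lower, Syk among them. Among all genes tested 3.01% did not overlap as higher and 6.65% as lower. None of 9 tested enzymes that supply NADPH passed (median 0.37, 8 positive), with the pentose phosphate dehydrogenases Pgd at 0.52 (adjusted p = 0.120) and G6pdx at 0.40 (0.226), the hexokinase Hk3 at 0.66 (0.319) and Idh1 at 0.48 (0.343). Of 10 enzymes that use or remove superoxide and peroxide, Mpo and Epx had 0 counts, and the 8 tested were positive with none past the test (median 0.34): Prdx5 at 0.40 (adjusted p = 0.258), Gpx1 at 0.58 (0.293), Cat at 0.48 (0.334) and Prdx2 at 0.46 (0.338). Gpx1, Cat and Prdx2 are also abundant in red cells, whose 15 tested markers had a median of 0.48.

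Of 13 transcription factors listed as regulators of oxidase genes, whichever way they act, 11 were tested and 1 passed as higher (median 0.14). Among all genes tested 0.463% passed as higher. Cebpd, a factor of myeloid differentiation, averaged 0.315 ± 0.143 CPM after PM2.5 against 0.0799 ± 0.0298 in controls, a rise of 1.99 on the log2 scale (SE 0.454, adjusted p = 0.0357), from 125 counts in all. It kept its call without PM2.5 replicate 18 or PBS replicate 16 and lost it without any other single library (adjusted p = 0.0581 to 0.150). Cebpd was at 1.23 without PM2.5 libraries 9 and 21 (adjusted p = 0.293), at 2.44 without 17 and 18 (0.0692), and at 1.202 (0.649), 2.28 (0.153) and 2.38 (0.423) with the neutrophil, erythroid and B cell covariates. It was at 1.55 under library totals (0.0914), at 1.71 with haemoglobin genes removed (0.0775) and at 1.84 from protein-coding transcripts (0.120).

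**Figure D4:**
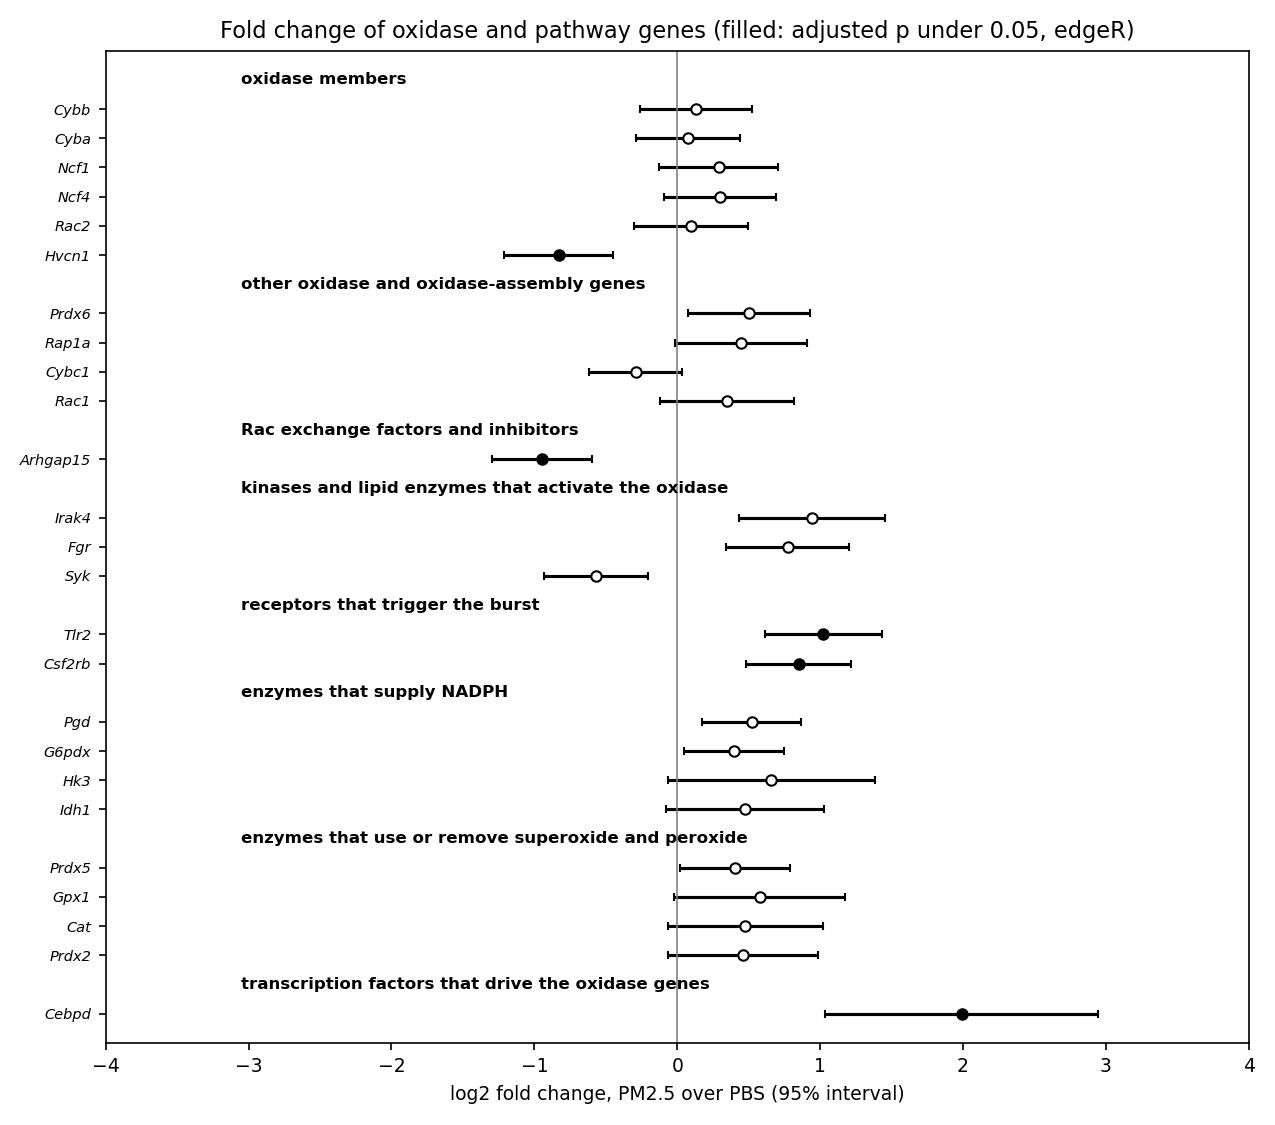
Log2 fold change of PM2.5 over PBS with its 95% interval for the 6 members and for genes named from each list by their p; filled points passed adjusted p 0.05 (edgeR), open points did not. Hvcn1 and Arhgap15 are filled on the lower side, and Tlr2, Csf2rb and Cebpd on the higher side.

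The sign of the small differences depended on scaling, and that of Hvcn1 did not. Scaled to library totals, Cybb, Cyba, Ncf1, Ncf4 and Rac2 were between -0.48 and -0.28, none past the test, where the median of all genes was -0.52. With haemoglobin genes removed before that scaling they were between -0.26 and -0.05, where that median was -0.30. Hvcn1 was at -1.43 (adjusted p = 0.00906) and -1.18 (0.0220) under these scalings. Over 21 alternatives Hvcn1 was negative in 21 and past the test in 8.

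**Figure D5:**
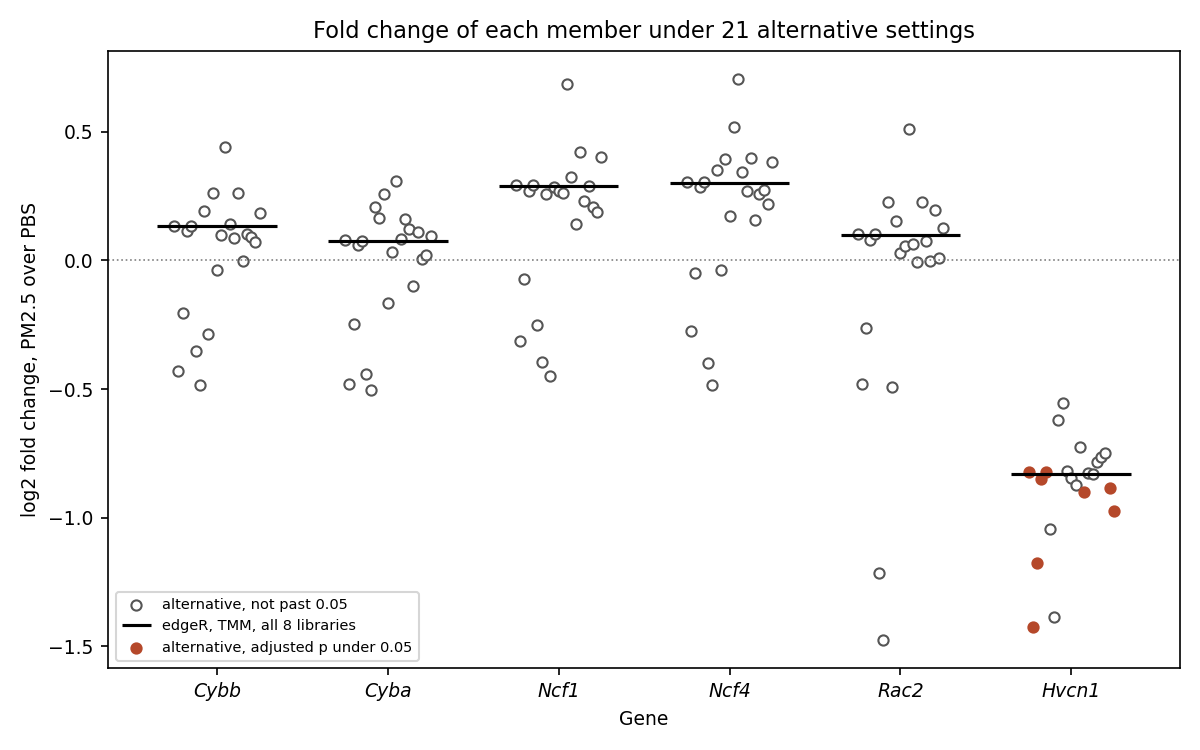
Log2 fold change of each member under 21 alternative settings (points) and in the edgeR fit with TMM scaling of all 8 libraries (lines); filled points passed adjusted p 0.05. Hvcn1 lies between -1.43 and -0.56, and the other 5 genes lie on both sides of 0 with no filled point.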

How the data were processed

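Per the labels' protocols, random primers and dUTP marking gave 8 strand-specific libraries of total RNA. Tools listed in the submitters' processing notes are bcl2fastq 2.17.1.14, cutadapt 1.9.1, HISAT2 2.0.1 and the build GRCm38. The counting tool is not given in the sources used here. The authors deposited expected counts (estimated, not normalized, 24.5% of values not whole) and FPKM for 118783 transcripts. Of these 116710 matched GENCODE M21 and were summed per gene. The remaining 2073, at most 0.0532% of any library, were dropped. Every pair of libraries differed by more than sampling noise.

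Rounded gene sums went into the two-sided quasi-likelihood test of edgeR 4.0.16 (R 4.3.3, filterByExpr with minimum count 10 and minimum total 15, TMM, group alone). The labels name no batch. The SE is the log2 fold change over the square root of F, an approximation. Likeness used log2 CPM with a prior count of 2. Limma 3.58.1, with a trend, on log2(FPKM + 1) of genes at 1 FPKM or more in 4 libraries, DESeq2 1.42.0, other scalings and filters, marker covariates and libraries left out were alternatives. The procedure was tested on simulated data. The members, lists and tests were chosen with earlier results of these data known. Named genes are all members and, from each pathway list, those past adjusted p 0.05 or, where none was, the 4 of smallest p, plus the 3 most like each member. A gene that this rule selects is not reported here. Ly6g, Ngp, Camp, Dock2, Elmo1, Vav3, the brain-expressed genes, the overlapping genes and the oxidase genes at or near 0 were named after their values were seen. Upstream sequences are RefSeq's and the Rac2-203 sequence is GENCODE's.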

Additional observations from a re-analysis of the deposited data

How the results depend on the processing

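Hvcn1 was negative in all 21 alternatives and passed in 8. With all 8 libraries it was -0.83 (adjusted p = 0.0298, edgeR). It missed the threshold under limma on log2(FPKM + 1) at -1.04 (adjusted p = 0.139) and with 0.1 at -1.38 (0.164), with the erythroid, neutrophil or B cell marker mean as a covariate at -0.62 (0.341), -0.56 (0.635) and -0.72 (0.538), without PM2.5 libraries 17 and 18 at -0.82 (0.209), without 9 and 21 at -0.85 (0.0832), and from protein-coding transcripts at -0.87 (0.0521). In these 8 settings 0 members passed, and leaving out 1 library gave -0.97 to -0.75 and 0 to 1 members. The protein-coding sum and the B cell covariate were chosen after seeing the data.

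The other 5 members passed in no alternative, and their sign turned as follows, in the order Cybb, Cyba, Ncf1, Ncf4 and Rac2; the cause was not tested. Library totals gave -0.43, -0.48, -0.31, -0.28 and -0.48. With haemoglobin genes removed these were -0.20, -0.25, -0.0715, -0.0487 and -0.26. Limma with 1 added gave -0.35, -0.44, -0.25, -0.40 and -1.22, and with 0.1 added -0.48, -0.50, -0.40, -0.48 and -1.47. With the neutrophil covariate Cybb was -0.29, Ncf1 -0.45, Ncf4 -0.0384 and Rac2 -0.49. Without PM2.5 libraries 9 and 21 Cybb was -0.0394 and Cyba -0.17. Leaving out 1 library gave -0.0031 to 0.26 for Cybb, -0.10 to 0.16 for Cyba and -0.0051 to 0.23 for Rac2. Without PBS replicate 4 Rac2 was -0.0038.

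Of all genes 166 passed. The count was 483 under library totals (8 higher, 475 lower, against 48 and 118), 622 with no filter, 371 with DESeq2, 49 from protein-coding transcripts, 8 without PM2.5 libraries 17 and 18, 1 with the B cell covariate, 0 with the erythroid or neutrophil covariate, 0 with either limma setting, and 31 to 192 with 1 library left out.

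No paired analysis was possible because the groups share no replicate number. Expected counts of 87 to 219 for Ncf4 and 4 libraries a group limit what could be seen.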
